A study of Mus musculus with 82 samples.

Results

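Transcription of 6 genes of cholesterol synthesis and of its control, Hmgcs1, Idi1, Fdft1, Sqle, Srebf2 and Insig1, was examined in V6.5 mouse ES cells. The members were listed by symbol, by a rule that uses no measured value although earlier results of these data were known, and all 6 were found among the 24743 genes with a curated RefSeq span on GRCm38. Sense reads on each span were compared between promoter and body, between assays and between batches of single cells. All libraries came from V6.5, an untreated ES cell line derived from a cross of C57BL/6 and 129/sv mice, grown with serum and leukaemia inhibitory factor, so that no genotype, treatment or time differed between groups. The groups were the assays. AGTuC is a bulk nuclear run-on in which elongating polymerases add a propargyl nucleotide and the nascent RNA is joined to a DNA adaptor by click chemistry, at a detergent concentration that opens the nuclei. inAGTuC runs the same reaction in intact nuclei at a lower concentration of sarkosyl, with many nuclei in each barcoded well. scGRO–seq applies it to single nuclei sorted into wells. The series comprised 76 scGRO–seq libraries, of which 53 belong to 10 batches used here, together with 4 inAGTuC libraries and 2 AGTuC libraries.

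Cholesterol is made from acetyl-CoA through mevalonate, farnesyl diphosphate and squalene. Hmgcs1 encodes the cytosolic HMG-CoA synthase of the mevalonate pathway, and Idi1 encodes the isomerase that makes dimethylallyl diphosphate. Fdft1 encodes squalene synthase, the step that commits farnesyl diphosphate to sterols, and Sqle encodes squalene epoxidase, a rate-limiting step that needs oxygen. Srebf2 encodes SREBP-2, a membrane-bound transcription factor that is released by proteolysis when sterols are scarce and then activates genes of sterol synthesis and uptake. Insig1 encodes the protein of the endoplasmic reticulum that holds SREBP-2 and its escort SCAP back when sterols are plentiful. SREBP-2 binds sterol regulatory elements near the start of its targets, often beside CCAAT boxes and GC boxes bound by the factors NF-Y and Sp1, and Srebf2 and Insig1 are themselves targets.

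The genes lie on 4 chromosomes. Hmgcs1 (chr13:119690351-119708260, plus strand) and Idi1 (chr13:8885606-8892396, plus strand) share chromosome 13. Sqle (chr15:59315092-59331193, plus strand) and Srebf2 (chr15:82147269-82204960, plus strand) share chromosome 15. Insig1 (chr5:28071412-28078662, plus strand) lies on chromosome 5 and Fdft1 (chr14:63145150-63179578, minus strand) on chromosome 14. Their spans run from 6.79 kb for Idi1 to 57.7 kb for Srebf2. Fdft1 is the only member with a second annotated start, 1691 bp downstream of the first, and its 3′ end overlaps Ctsb on the opposite strand.

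Upstream sequence was held for 4 of the 6 members. It is shown because reads near the start turned out to separate the assays and because these genes share a known mode of control. The RefSeq sequences below (GRCm38.p6) are the 250 bases before the start on the plus strand, 5′ to 3′. Capitals mark matches on either strand to TCACNCCAC, one form of the sterol regulatory element, to CCAAT and to GGGCGG, the GC box. No match to TATAAA was present in these 4.

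Hmgcs1, chr13:119690101-119690350: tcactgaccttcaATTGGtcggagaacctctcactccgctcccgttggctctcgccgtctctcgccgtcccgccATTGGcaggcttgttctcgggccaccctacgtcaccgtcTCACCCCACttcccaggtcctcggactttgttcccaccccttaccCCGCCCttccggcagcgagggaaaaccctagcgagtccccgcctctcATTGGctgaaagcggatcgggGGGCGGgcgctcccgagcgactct

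Idi1, chr13:8885356-8885605: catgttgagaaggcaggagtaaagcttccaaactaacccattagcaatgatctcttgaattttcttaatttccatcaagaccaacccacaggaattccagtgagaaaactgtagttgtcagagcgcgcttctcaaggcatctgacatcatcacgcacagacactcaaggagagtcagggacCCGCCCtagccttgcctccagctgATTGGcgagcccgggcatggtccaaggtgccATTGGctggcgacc

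Srebf2, chr15:82147019-82147268: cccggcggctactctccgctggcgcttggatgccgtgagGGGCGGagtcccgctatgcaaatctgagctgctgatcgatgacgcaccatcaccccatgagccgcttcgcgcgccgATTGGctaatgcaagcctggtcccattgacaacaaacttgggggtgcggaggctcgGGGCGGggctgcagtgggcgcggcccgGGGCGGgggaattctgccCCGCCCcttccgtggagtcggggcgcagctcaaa

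Insig1, chr5:28071162-28071411: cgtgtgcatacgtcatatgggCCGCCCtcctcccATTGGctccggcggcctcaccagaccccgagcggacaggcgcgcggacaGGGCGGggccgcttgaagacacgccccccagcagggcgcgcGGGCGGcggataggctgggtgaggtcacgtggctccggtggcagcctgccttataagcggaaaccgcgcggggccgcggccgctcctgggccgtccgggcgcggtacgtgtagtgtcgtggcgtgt

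The sterol regulatory element in this form occurred in Hmgcs1, with its first base 137 bases before the start, and in 1.05% of the 32851 promoters of the table. CCAAT occurred 3 times in Hmgcs1, 2 times in Idi1 and 1 time each in Srebf2 and Insig1, and 33.9% of all promoters held it. The GC box occurred 2 times in Hmgcs1, 1 time in Idi1, 4 times in Srebf2 and 3 times in Insig1, against 32.7% of all promoters with at least 1. TATAAA was in 12.4% of promoters. The motif matches are letters only, and no binding was measured.

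The 10 scGRO–seq batches held 2512 cells that passed the filters in 35 libraries, with 92 to 812 cells per batch and a median of 3424 UMIs per cell. Sense reads in gene bodies numbered 136864 to 2428931 per batch, 255609 to 815367 per inAGTuC library, and 1090764 and 2257482 in the AGTuC libraries. Both AGTuC libraries belong to 1 batch that holds no other assay, so assay and batch cannot be told apart for AGTuC. The labels give no separate cultures, and p-values therefore measure the spread between batches and libraries. ES cell identity was checked with 9 markers. The summed body level of these markers, in reads per kb and per 1000000 body reads of the sample, was 38.3 to 131.5 in scGRO–seq batches, 71.1 to 81.2 in inAGTuC and 244 to 252.2 in AGTuC, with Dppa5a, whose span leaves almost no body, alone at 0. Of 5 genes of bile acid synthesis and transport and of plasma proteins in liver, all were at 0 in AGTuC. Their summed level had a median of 0.95 and a highest of 10.4 in scGRO–seq, and of 3.22 and 5.73 in inAGTuC. A list of 3 neural markers summed to 23.8 and 24.2 in AGTuC, against a median of 3.16 in scGRO–seq and 3.88 in inAGTuC. Nearly all of the AGTuC sum came from Sox1, which was called higher in AGTuC than in inAGTuC (adjusted p = 0.00059, limma voom). Pax6, with 1 body read in AGTuC and 39 in inAGTuC, was called lower in AGTuC (adjusted p = 0.0011, limma voom). An endoderm list reached a summed level of 31 in 1 batch, against a median of 2.90, with Foxa2 alone reaching 30.1. The summed level of 5 fibroblast markers was 0.433 to 5.98 in scGRO–seq batches, 0.915 to 3.67 in inAGTuC, and 1.12 and 1.81 in AGTuC. The part of these lists in the results was not tested.

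The first question was where along each gene polymerases were captured, and whether this differed between bulk and single-nucleus run-on. In AGTuC, the first 500 bp held 9.44 to 21.7 times as many reads per base as the body in 5 of the 6 genes, all but Fdft1. The share of reads in the promoter ran from 8.03% for Srebf2 to 58.4% for Insig1 in these 5, against 1.54% to 12.1% in scGRO–seq and 1.59% to 11.8% in inAGTuC. A background was formed by the 7052 genes with at least 50 body reads in each assay, a set that Idi1 and Insig1 did not reach. Among these background genes, the median share of promoter reads in promoter plus body was 17% in AGTuC, 2.56% in inAGTuC and 1.80% in scGRO–seq. Of 5 members tested with limma across all genes, the promoter to body ratio of 3 rose in AGTuC against scGRO–seq. That of Fdft1 was called lower, a value set by the pseudocount and depth, since most scGRO–seq batches held no promoter read. Of the 7838 genes tested, 52% were called higher in AGTuC and 2.74% lower. The median log2 difference was 2.21 over the 5 members and 2.21 over all genes, and with a pseudocount of 2 that over all genes was 0.99.

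Sqle showed the clearest contrast. Its promoter share was 39.1% and 43.4% in the AGTuC libraries, from 52 and 98 promoter reads. It was 25.0%, 13%, 6.67% and 8.33% in the inAGTuC libraries, and over scGRO–seq batches the lowest and the median were 0% and the highest 27.8%. Both AGTuC libraries lay above every other sample. The log2 ratio was 3.11 higher in AGTuC than in scGRO–seq (SE 0.92, adjusted p = 0.0049, limma), a fold of 8.63. With a pseudocount of 2 it was 1.92 (adjusted p = 0.047). Of the AGTuC reads, 142 fell within the first 100 bp after the start, and 60 reads ran in the opposite direction from the 500 bp upstream.

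Insig1 had the highest promoter share of the members. The AGTuC libraries gave 58% and 58.6%, from 65 and 154 promoter reads, with 17.6 times as many reads per base in the promoter as in the body. The inAGTuC libraries gave 0%, 15.8%, 30% and 0%. Over scGRO–seq batches the lowest was 0%, the median 11.4% and the highest 50.0%, the last from a single promoter read. AGTuC lay above all other samples, and the log2 ratio was 2.69 higher than in scGRO–seq (SE 1.01, adjusted p = 0.023, limma). The adjusted p was 0.060 with a mapping quality of at least 10 and 0.077 with no filter on low counts, and the difference was 1.88 with a pseudocount of 2. Batch Exp236 held 8 of the 17 promoter reads and 70 of the 123 body reads of Insig1 in scGRO–seq. Without this batch Insig1 fell short of the read filter and was not tested. In AGTuC a further 214 sense reads lay in the 500 bp before the annotated start, all within 100 bp of it, so that the window from the start left out nearly as many reads as the 219 that it held. Divergent transcription was strong as well, with 188 antisense reads in the 500 bp upstream in AGTuC and 14 in scGRO–seq. The 219 promoter reads outnumbered the 156 body reads of the same libraries.

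Srebf2, the longest member, had a lower share. It was 8.12% and 7.99% in AGTuC, from 29 and 58 promoter reads, and 8.70%, 0.633%, 0.952% and 0.758% in inAGTuC. Over scGRO–seq batches the lowest and the median were 0% and the highest 8.77%. The groups overlapped, because inAGTuC library Exp208_c12 and batch Exp264a reached the AGTuC values. The log2 ratio was 2.21 higher in AGTuC (SE 0.93, adjusted p = 0.041, limma), and this call was lost without any 1 of the batches Exp211, Exp246 or Exp263, where the adjusted p was 0.055 to 0.059, and with a mapping quality of at least 10, no filter on low counts, a promoter of 250 bp, libraries as replicates or 1 AGTuC library, where it was 0.080 to 0.24. The difference was 2.13, 2.10 and 2.09 without Exp211, Exp246 and Exp263. It was 1.743 with the mapping quality filter and 1.745 with the promoter of 250 bp. With a pseudocount of 2 the difference was 0.91 (adjusted p = 0.42). With reads per base taken into account, the AGTuC promoter was 9.90 times as dense as the body.

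Hmgcs1 had a promoter share of 23.8% and 20.7% in AGTuC, from 30 and 44 promoter reads. The inAGTuC libraries gave 15.0%, 0%, 25.0% and 3.13%, and scGRO–seq ran from 0% through a median of 3.07% to 18.2%. AGTuC lay above every scGRO–seq batch but not above inAGTuC library Exp234_c11. The log2 ratio was 1.63 higher in AGTuC with SE 0.99, which did not pass the test (adjusted p = 0.15, limma). With a pseudocount of 2 it was 0.65 higher (adjusted p = 0.55, limma). Its AGTuC reads peaked between 100 and 200 bp after the start, where 53 of the 74 promoter reads lay.

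Idi1 was left out of the fit because it had too few promoter and body reads in scGRO–seq and inAGTuC. Its 2 AGTuC libraries had 20 and 41 promoter reads, shares of 54.1% and 48.2%. In scGRO–seq, 8 of 10 batches had no promoter read, and the highest share was 11.1%. Without the filter on low counts the log2 difference was 2.46, with an adjusted p of 0.054 (limma), which did not pass. With 0 promoter reads in most scGRO–seq batches, this value depends largely on the pseudocount of 0.5 and on depth. Of the AGTuC reads of Idi1, 12 lay in the first 100 bp, 17 from 300 to 400 bp and 25 from 400 to 500 bp downstream, with 15 more in the next 100 bp.

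Fdft1 had almost no reads at its first annotated start. Each AGTuC library held 1 promoter read, against 281 and 596 body reads, giving shares of 0.355% and 0.168%. Of the inAGTuC libraries, Exp234_c11 held 1 promoter read and the other libraries none. In scGRO–seq, 8 of 10 batches held none, and the highest share was 1.54%. The log2 ratio was 2.61 lower in AGTuC (SE 0.87, adjusted p = 0.011, limma), but with 0 counts in most samples this value is set by the pseudocount of 0.5 and by depth. The reads lay at the second annotated start instead. Its first 500 bp held 80 reads in AGTuC, 12 in inAGTuC and 27 in scGRO–seq. With promoter reads counted after any annotated start, the difference was 0.13 (adjusted p = 0.91, limma), and with 500 bp on both sides of the first start it was -1.28 (adjusted p = 0.19).

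**Figure D1:**
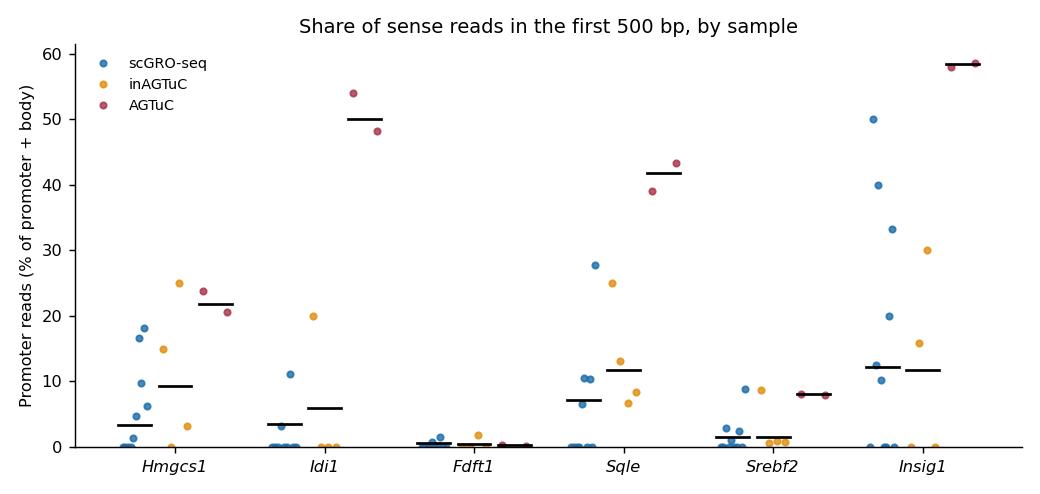
Promoter reads as a percentage of promoter plus body reads (y axis) for the 6 genes in scGRO–seq batches (n = 10), inAGTuC libraries (n = 4) and AGTuC libraries (n = 2). Points are samples and bars the share in pooled reads, and the AGTuC points of Sqle, Insig1 and Idi1 sit above all other samples, while those of Fdft1 sit near 0.

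**Figure D2:**
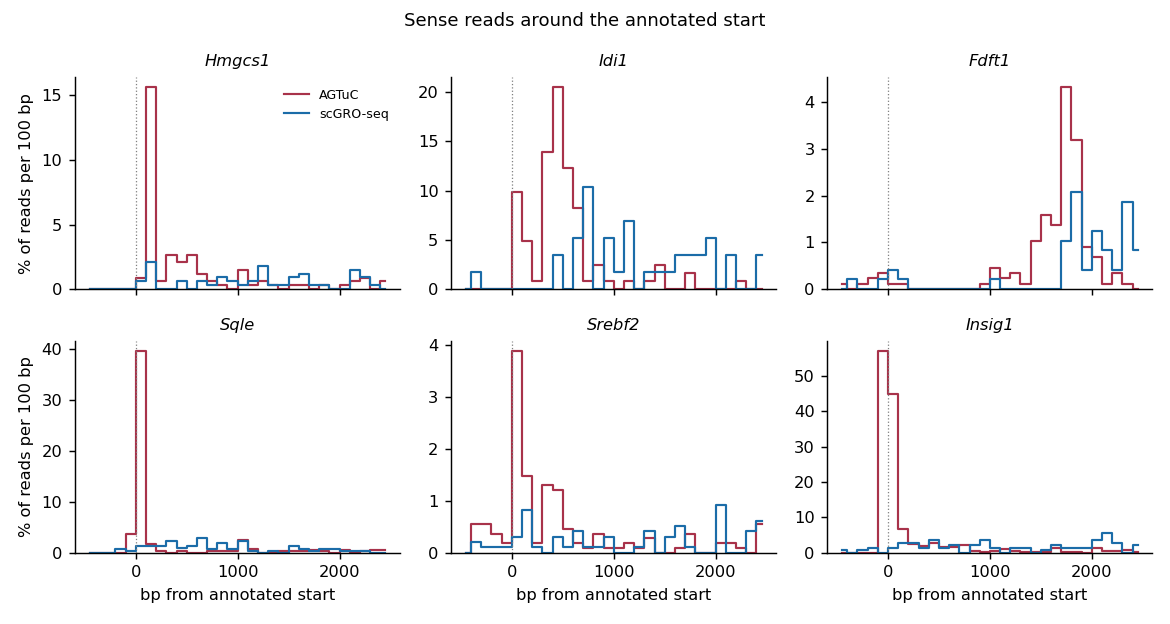
Sense reads per 100 bp around the annotated start, as a percentage of promoter plus body reads, in AGTuC and scGRO–seq, with distance from the start in bp on the x axis and a y scale of its own for each gene. In AGTuC, Sqle peaks just after the start, Insig1 on both sides of it and Fdft1 near the second annotated start, 1691 bp downstream.

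The calls on the promoter ratio rest on both AGTuC libraries. Without either library, 0 members passed the threshold, with adjusted p-values of 0.058 to 0.20 for those called with both (limma), and the share of all genes called went from 54.7% to 19.7% and 13%. The differences of 3 members stayed close to those with both libraries, at 3.24 and 2.99 for Sqle, 2.71 and 2.67 for Insig1, and 2.19 and 2.22 for Srebf2, whereas Fdft1 went from -2.61 to -3.15 without Exp125c_c01 and to -2.06 without Exp125c_c02. The lone AGTuC library is then assumed to vary like the other groups. Promoter reads were few outside AGTuC, with 2 for Idi1 to 22 for Sqle over all scGRO–seq batches and 1 for Idi1 and for Fdft1 to 12 for Sqle in inAGTuC.

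inAGTuC, which shares the low detergent concentration with scGRO–seq, gave no difference past the threshold in promoter ratio. None of the 7838 genes was called (0%), and 263 of them, 3.36%, had an unadjusted p under 0.05 in limma. The log2 differences of the 5 members tested ran from -0.81 for Insig1 to 0.97 for Sqle, with SE of 0.66 to 0.77 and an adjusted p of 0.996 each. With SE of this size, differences as large as these could not be told from 0. This comparison uses the same scGRO–seq batches as the one with AGTuC.

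The other genes of the pathway were taken from fixed lists. Of 5 genes of the mevalonate steps tested, 2 had a higher promoter ratio in AGTuC than in scGRO–seq and none a lower one. Acat2, the thiolase of the first step, had a log2 difference of 2.35. Of 8 genes of the sterol steps, 3 rose, among them Sqle and Lss, the latter at 2.27, and 1 was called lower, Fdft1, whose value is set by the pseudocount and depth. Of 8 regulators, 6 rose, where 52% of all genes did, among them Scap, the escort of SREBP, at 3.02. None of 5 genes of uptake and trafficking passed. Of 4 genes of efflux and esterification 2 rose, Soat1 at 3.09 and Apoe at 2.82, and of 7 genes of fatty acid synthesis 3 rose, Fasn at 3.77, Acly at 3.36 and Me1 at 2.56. Without the 6 members, 13 of 32 genes of these lists were called higher and none lower, with a median of 1.97 against 2.21 over all genes.

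Levels in the gene body were compared next, as reads per kb of body and per 1000000 body reads. In scGRO–seq the mean levels of the 6 genes lay above those of 79.2% to 94.1% of the 22373 genes with a countable body, whose median level was 0.645. The lowest rank was that of Idi1, which rested on 56 body reads and is uncertain for that reason. Idi1 lay above 72.7% of genes in inAGTuC and above 79.3% in AGTuC. In bulk samples, fewer nuclei that transcribe a gene and less RNA per nucleus cannot be told apart.

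Srebf2 had the highest mean level in scGRO–seq, 3.49 ± 1.24 (SD, n = 10 batches), with a range of 2.16 to 5.91 and a median of 3.27. It was followed by Insig1 at 3.37 ± 2.07, Sqle at 3.31 ± 1.27, Fdft1 at 2.94 ± 1.17 and Hmgcs1 at 2.71 ± 1.67, and these neighbours differed by less than their SD. Idi1 was lowest at 1.75 ± 1.03, with 0 body reads in batch Exp211 and 31 in batch Exp236. In reads pooled over batches the order changed. Insig1 was at 3.79, Hmgcs1 at 3.68, Sqle at 3.62, Srebf2 at 3.26, Fdft1 at 2.75 and Idi1 at 1.86. Beside them, the highest levels among the pathway lists were those of Apoe at 12.5, of the desaturase gene Scd2 at 9.72 and of Fasn at 6.81.

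In inAGTuC the order of the means was similar. Srebf2 had levels of 2.90, 6.09, 4.22 and 2.83, Insig1 3.76, 5.63, 2.57 and 3.14, and Fdft1 2.46, 4.35, 3.71 and 1.87 in libraries Exp208_c12, Exp208_c14, Exp234_c11 and Exp261_c16. Exp208_c14 was highest for these 3 genes. Sqle had a mean of 2.93 ± 0.60, Hmgcs1 2.54 ± 0.98 and Idi1 1.62 ± 0.76 (SD, n = 4). The ranges of all 6 genes overlapped those of scGRO–seq. The log2 differences, scGRO–seq minus inAGTuC, ran from -0.24 for Srebf2 to 0.24 for Hmgcs1 with SE of 0.25 to 0.49, and adjusted p-values of 0.90 to 0.99 (limma voom). None of the 14812 genes tested was called (0%), and 812 of them, 5.48%, had an unadjusted p under 0.05. Within the batches that hold both assays, the differences of the 5 members with enough reads ran from -0.34 for Sqle to 0.49 for Insig1 with SE of 0.47 to 0.72, and no gene was called. With libraries in place of batches as scGRO–seq replicates, 0.0203% of genes were called, none of them a member.

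AGTuC gave higher levels of every member than the mean of inAGTuC, of which 1 passed the test. Fdft1 rose, with levels of 7.71 and 7.90 in AGTuC above a highest inAGTuC level of 4.35, a log2 difference of 1.41 (SE 0.34, adjusted p = 0.0041, limma voom). Without AGTuC library Exp125c_c02 its adjusted p was 0.067, and with log2 CPM and limma trend it was 0.054. Across all genes, 17.1% were called higher and 16.9% lower. Hmgcs1 (4.43 and 5.21 in AGTuC) and Insig1 (6.89 and 7.72) also lay above all inAGTuC libraries, with log2 differences of 1.00 and 0.98 that did not pass (adjusted p = 0.077 each). Idi1, at 2.69 and 3.37, lay on either side of the highest inAGTuC level of 2.70, with a difference of 0.96 (adjusted p = 0.16). Sqle, at 3.75 and 4.92, lay above the highest inAGTuC level of 3.57 but differed by only 0.48 (adjusted p = 0.33), and Srebf2, within the inAGTuC range, by 0.44 (adjusted p = 0.28, limma voom). The median over the 6 members was 0.97, against 0.18 over all genes tested.

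**Figure D3:**
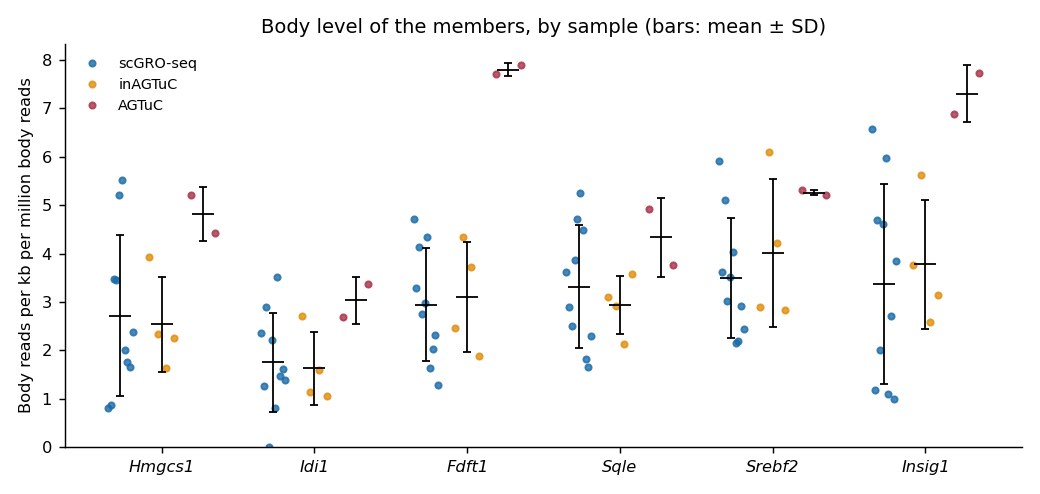
Body level of the 6 genes (y axis, reads per kb of body and per 1000000 body reads) in scGRO–seq batches (n = 10), inAGTuC libraries (n = 4) and AGTuC libraries (n = 2). Points are samples and bars the mean ± SD, and both AGTuC points of Fdft1, Hmgcs1, Sqle and Insig1 lie above every inAGTuC point.

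Some other pathway genes had higher levels in AGTuC as well. Of 9 genes of the mevalonate steps, 3 rose, Pmvk by 2.23, Fdps by 1.95 and Mvk by 1.53 on the log2 scale. They encode phosphomevalonate kinase, farnesyl diphosphate synthase and mevalonate kinase, and Hmgcs1 and Idi1 stood among the 6 that did not pass. Of 12 genes of the sterol steps, 6 rose, with Tm7sf2 at 1.78, Hsd17b7 at 1.47 and Fdft1 at 1.41 the furthest. Among 9 regulators Srebf1 rose by 1.42, and among 7 genes of fatty acid synthesis Scd2 rose by 1.86 and Fasn by 1.39. None of 5 genes of efflux and esterification passed. Of 9 genes of uptake and trafficking, 1 rose and 1 fell, with a median of -0.22. Without the members, 12 of 45 genes of these lists rose and 1 fell, with a median of 0.62, beside 17.1% and 16.9% of all genes. Of the ES cell markers, 7 of 8 tested rose between the same libraries, with a median of 1.67, and their part in these differences was not tested.

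Levels also differed between scGRO–seq batches. With libraries as samples and the batches compared in an F test, 31.7% of 11726 genes were called, and of the members Srebf2 and Fdft1 were. Srebf2 was highest in Exp156 at 5.91 and lowest in Exp260 at 2.16, a fitted log2 range of 1.50 (adjusted p = 0.017, limma voom). Such a range is the highest minus the lowest fitted batch, and its median was 2.04 over all genes tested and 2.03 over the 6 members. Fdft1 was highest in Exp156 at 4.71 and lowest in Exp264a at 1.28, a range of 1.86 (adjusted p = 0.048). Without Exp156 or without Exp260b neither passed, with adjusted p-values of 0.10 to 0.12. Fdft1 alone was lost without Exp160, at 0.053, and without Exp264a, at 0.18. Under median ratio scaling the adjusted p was 0.14 for Srebf2 and 0.20 for Fdft1. Marker genes were called between the same batches. They were 3 of 8 ES cell markers tested (Tfcp2l1, Klf4 and Esrrb), both fibroblast markers tested (Col1a1 and Pdgfra), and the 1 endoderm and 1 neural marker tested (Gata4 and Pax6). Their part in the differences of Srebf2 and Fdft1 was not tested.

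Hmgcs1 ran from 0.809 in Exp156 to 5.53 in Exp246 and was just short of the threshold, with an adjusted p of 0.0502 (limma voom). It passed without Exp208, Exp211, Exp260 or Exp264a, at 0.033 to 0.047. Sqle ran from 1.65 to 5.26, Insig1 from 0.994 to 6.57 and Idi1 from 0 to 3.52, with adjusted p-values of 0.13, 0.16 and 0.52. Exp156 had the highest level of Fdft1, Srebf2 and Insig1 and the lowest of Hmgcs1. Its values rest on 6 body reads for Insig1 and 2 for Hmgcs1, and neither gene was called between batches. Whether the genes share an order of batches was not tested. Of the other pathway genes, 8 of 42 tested were called, where 31.7% of all genes were. The 8 included Acaca, acetyl-CoA carboxylase, with an adjusted p of 3.1e-08 (limma voom) and a range of 2.53. Mylip, a ubiquitin ligase, had a range of 3.43, and Msmo1 had 2.63. Scarb1, Mbtps1, Soat1 and Fasn were also called.

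The genes whose log2 body level followed the mean log2 level of the members most closely over the 10 batches were Acsl3 (Pearson r = 0.968), Nup205 (0.959), Map3k7 (0.947), E130308A19Rik (0.936) and Zfp106 (0.917), of 5834 genes compared. The median r of these genes was 0.20, and 99 had an r above 0.8. The members reached 0.45 for Hmgcs1, 0.63 for Sqle, 0.70 for Fdft1 and 0.75 for Srebf2 against a mean that includes them. Idi1 and Insig1 were below the minimum mean of 20 body reads per batch and were not compared. Both still enter the mean of the members, with few reads in most batches. The 10 points share their depth and scaling, and no p is given.

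The position of reads within the body was described without a test. In scGRO–seq, exons of Sqle held 34.2% of its body reads (95% Wilson interval 28.9% to 39.9%) although they make up 11.8% of the body, and in AGTuC they held 11.5% (7.84% to 16.5%). Srebf2 showed the same, with 18.5% of reads in scGRO–seq and 8.13% in AGTuC on exons that cover 6.79% of the body. Hmgcs1 had 36.5% and 23.4% on 17.2%. Fdft1 ran in the other direction, with 9.62% in scGRO–seq and 17.1% (14.8% to 19.7%) in AGTuC on 9.41% of the body. Its body includes the second annotated start, whose first 500 bp held 80 of 877 body reads in AGTuC and 27 of 478 in scGRO–seq. The part of these reads in the exon shares was not tested. Idi1 was below its exon share in every assay, at 14.3% of reads in scGRO–seq and 1.64% in AGTuC on 34.1% of the body. Insig1, at 22.8% and 21.2% on 28.2%, hardly differed between these assays. Among the 7033 background genes with an intron in the body, the median ratio of the exon share of reads to that of length was 1.84 in scGRO–seq, 1.76 in inAGTuC and 1.23 in AGTuC.

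**Figure D4:**
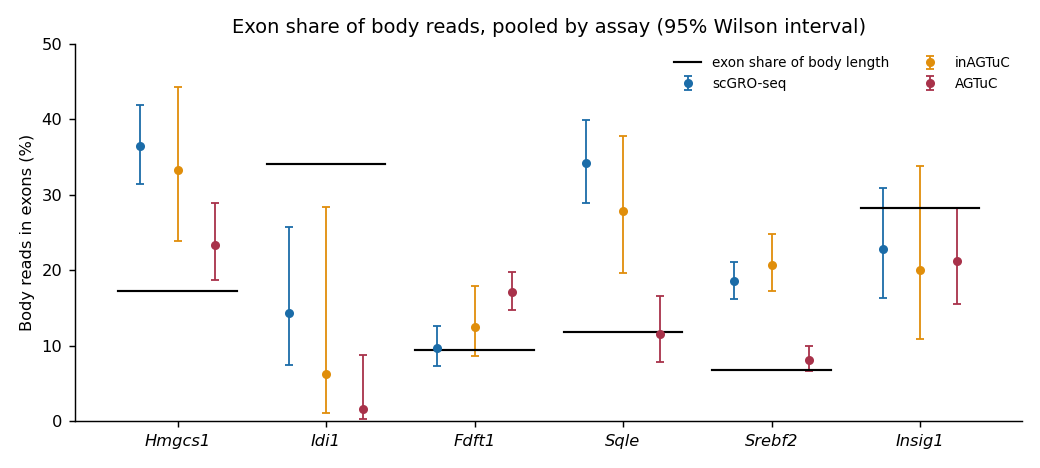
Percentage of sense body reads in exons (y axis) for the 6 genes in scGRO–seq, inAGTuC and AGTuC, with 95% Wilson intervals, which cover counting error only. Horizontal marks give the percentage of the body that is exonic, and the scGRO–seq points of Sqle, Srebf2 and Hmgcs1 lie above theirs, while Idi1 lies below in all assays.

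Reads of Idi1 and Insig1 were concentrated towards the 5′ end in scGRO–seq. The upstream 50% of the body of Idi1 held 82.1% of its reads (95% Wilson interval 70.2% to 90.0%) in scGRO–seq and 73.8% in AGTuC. That of Insig1 held 73.2% (64.7% to 80.2%) in scGRO–seq but 46.2% (38.5% to 54%) in AGTuC. Of the 61 AGTuC body reads of Idi1, 15 lay 500 to 600 bp after the start and 10 lay 600 to 700 bp after it. No AGTuC read of Idi1 lay from 67.5% to 92.5% of its span, while 104 lay in the 2000 bp past its end. This gap enters the AGTuC level, exon share and past-end density of Idi1, and its cause was not tested. In inAGTuC the upstream share was 68.8% for Idi1 and 62.2% for Insig1. In Hmgcs1, Fdft1, Sqle and Srebf2 the share lay between 41.8% and 56.3% in every assay. Over the background genes the median ratio of upstream to downstream body reads was 1.034 in scGRO–seq, 1.025 in inAGTuC and 1.054 in AGTuC. Past the 3′ end, the density of reads relative to the body was highest in AGTuC for each member. The 2000 bp after the annotated end held 0.33 to 0.74 times as many reads per base as the body in scGRO–seq, 0.14 to 0.72 times in inAGTuC and 2.20 times for Sqle to 4.94 times for Idi1 in AGTuC. The median over the background genes was 0.43, 0.42 and 1.96, in the same order.

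Antisense reads on the spans differed between assays. In scGRO–seq they numbered 35.8 to 44.8 per 100 sense reads on each member, near the median of 41.6 over the background genes. In AGTuC, Hmgcs1 had 2.33, Insig1 2.39 and Srebf2 4.57 per 100, near the median of 5.56, whereas Sqle had 20.4, Fdft1 23 and Idi1 43.9. Of the 54 antisense reads of Idi1 in AGTuC, 30 lay within 50 bp of each other, and of the 209 on Fdft1, which overlaps Ctsb, 29 did. In scGRO–seq, 33 of the 121 antisense reads of Hmgcs1 did. The hairpin of Mir33, which lies in an intron of Srebf2 and gives a microRNA that acts on cholesterol export, held 1 sense read in scGRO–seq, 2 in inAGTuC and 5 in AGTuC.

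In single cells, a UMI on the sense strand of at least 1 member was found in 51.4% of the 2512 cells (95% Wilson interval 49.5% to 53.4%). The share ranged from 32.1% in batch Exp263 to 77.4% in batch Exp246. It depends on depth and gene length. Taken at 1000 UMIs per cell, which every kept cell had, the share was 18.5%, and batches ranged from 11% in Exp260b to 34.9% in Exp156, whose cells were the shallowest with a median of 1864 UMIs. The 1000 are taken from all UMIs of a cell, also those outside gene spans. Sense reads on gene spans numbered 157008 beside 222963 UMIs in Exp156, and 1005248 beside 2414653 in Exp260b. The part of this difference in the range was not tested.

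Srebf2 was seen in 30.3% of cells, Fdft1 in 16%, Hmgcs1 in 11.5%, Sqle in 11.3%, Insig1 in 5.37% and Idi1 in 2.19%. Srebf2 has the longest span and Idi1 the shortest, and within the first 10 kb of each gene the shares lay closer together, at 7.72% for Sqle, 6.45% for Hmgcs1, 6.41% for Srebf2, 5.41% for Fdft1, 5.37% for Insig1 and 2.19% for Idi1. Antisense UMIs on the same spans were seen in 1.04% of cells for Idi1 to 11.6% for Srebf2. Over all cells the sense share of each member was higher than its antisense share, but in batch Exp260b Hmgcs1 had sense UMIs in 31 cells and antisense UMIs in 34. The numbers of cells were equal for Sqle in Exp211, at 13, for Insig1 in Exp160, at 2, and for Idi1 in Exp246, at 1. In Exp211, 0 of 111 cells had a UMI of Idi1, with an upper bound of 3.35% from the 95% Wilson interval. The bound limits cells with a UMI at this depth, not cells that transcribe the gene.

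Co-occurrence was compared with the number expected if the UMIs of each library were dealt out among its cells at random, in proportion to depth, computed exactly. Summed over the 15 pairs of members, so that a cell counts for each of its pairs, both members of a pair were seen together 853 times, where 874 were expected, a ratio of 0.976 that ranged from 0.427 in Exp260 to 1.35 in Exp263. These extremes rest on few counts, 3 against 7.03 expected in Exp260 and 19 against 14.1 in Exp263. Batch Exp236, with 604 of the 853, had a ratio of 0.984. The pair of Hmgcs1 and Insig1 was lowest, with 23 cells against 33.1 expected, a ratio of 0.696. Idi1 and Srebf2 were highest, with 27 against 24.4, a ratio of 1.11. Pairs with more cells lay closer to 1, such as Fdft1 and Srebf2 with 174 against 171.3, Sqle and Srebf2 with 128 against 121.7, and Hmgcs1 and Srebf2 with 127 against 129. The enzymes Fdft1 and Sqle, which act in sequence, met in 68 cells, where 74.6 were expected.

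Values of other genes were in the same range. The median ratio of the 15 pairs was 0.947 and 5 of them were above 1, while over all pairs of the 11666 genes seen in at least 55 cells the median was 0.966 and 39.3% were above 1. Counted per cell, 1220 cells had none of the 6 members against 1229 expected, 841 had 1 against 833, 304 had 2 against 310, and 119 had 3 against 101. Above that, 22 cells had 4 members where 30.7 were expected, 6 had 5 where 6.71 were, and none had all 6, with 0.634 expected.

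**Figure D5:**
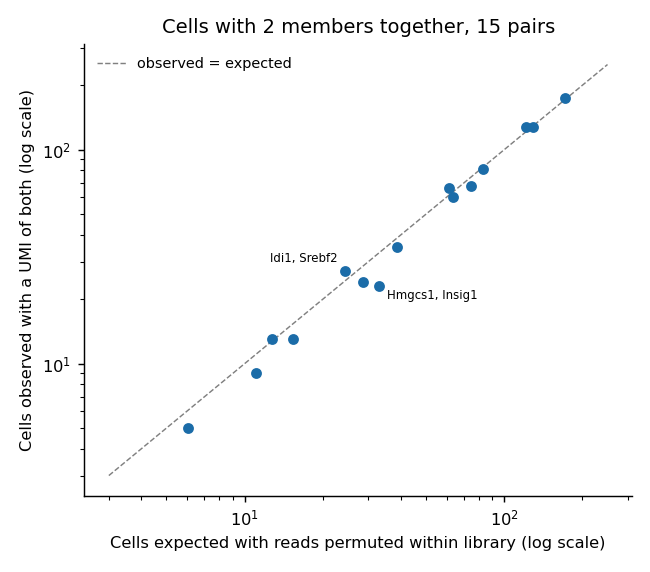
Cells with a UMI of both members of a pair (y axis, log scale) against the number expected with reads permuted within library (x axis, log scale), 1 point per pair (15 pairs, 2512 cells). The points follow the line of equality, and the pair Hmgcs1 and Insig1 lies furthest below it, at 23 cells against 33.1.

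Cells with several UMIs of the same member were counted in the same way. Summed over the 6 members, at least 2 UMIs were seen 333 times, with 326 expected, a ratio of 1.02. Srebf2 gave 176 against 179, Fdft1 64 against 61.2, Hmgcs1 43 against 43.2 and Sqle 36 against 33.1. Insig1 gave 11 against 8.35 and Idi1 3 against 1.23, both on few cells. The most UMIs of a member in a cell were 6, for Fdft1 and for Srebf2. When UMIs less than 50 bp apart in a cell were merged, the ratio was 0.958. Without merging, the median ratio over genes was 1.06 and the sum over genes gave 1.02, the same value as the members. Merged UMIs were counted for the members only, so 0.958 has no value over genes beside it.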

How the data were processed

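For V6.5 mouse ES cells, the authors deposited a read list for every library. The authors removed adaptors with Cutadapt, split reads by barcode with Flexbar, removed ribosomal reads, mapped the rest to mm10 with bowtie2 and used UMI-tools to remove duplicates (versions are not given in the sources used here). The deposited score of each read is its mapping quality, and serves here only as a filter in an alternative. Every count is a count of reads, taken from these lists. The strand of a read is opposite to that of the RNA, and its 5′ end gives the polymerase.

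Genes were spans of curated RefSeq transcripts on GRCm38. The promoter was the first 500 bp, and the body the span without 500 bp at either end. Molecules found in more than 1 library, 28.9% of reads in the named scGRO–seq batches, were left out. Exp261_c16 is listed under both scGRO–seq and inAGTuC with 99.7% of its molecules in common, and was used as inAGTuC only. The 10 batches are those named in the legend of the study's batch comparison. Cells had at least 1000 UMIs and 750 genes, in libraries with at least 24 such cells (enhancers were not counted as features). Of 254 cell barcodes, 226 occur in more than 1 library, and a cell was a barcode of 1 library.

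limma 3.58.1 (R 4.3.3) was fitted across all genes and p-values were adjusted by Benjamini-Hochberg, with a threshold of 0.05. Ratios were log2((promoter + 0.5)/(body + 0.5)), for genes with a mean of at least 10 promoter and body reads per sample in each assay. Levels were fitted with voom, scaled to body reads, for genes with at least 50 reads. Batches were the scGRO–seq samples, and libraries the samples of the other assays. Wilson intervals (95%) cover counting error only. Cells with several genes or UMIs were set against the exact expectation for reads permuted within a library. The scripts were tested on simulated data.

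The members and gene lists were chosen with earlier results of these data known. Beside the 6 members, the text names by rule, per list and direction, up to 3 called genes with the largest difference, the 3 highest levels, and the 5 genes most like the members over batches. Other called genes of the lists (Scarb1, Mbtps1, Soat1, Fasn between batches) and Dppa5a, Sox1, Pax6 and Foxa2 were named after their values were seen. Some genes of these lists are not reported here. Alternatives covered the reads, filters, windows, pseudocount, scaling, fit, replicates and cells. RefSeq promoter sequences matched 4 of 6 members; Sqle and Fdft1 are named only.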

Additional observations from a re-analysis of the deposited data

Results flagged for a closer look

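In 45 groups of 4 to 10 samples, the highest or lowest value was set against the others by Dixon's ratio, and 13 groups held a sample that stood apart, where chance gives about 1 in 20 for continuous values. That rate does not hold for these sparse counts, since a single read stands apart by construction where all other samples are at 0. Of the promoter shares, Fdft1 was at 1.82% in inAGTuC library Exp234_c11, where the other 3 libraries had 0%, from 1 read. Idi1 was at 20% in inAGTuC library Exp208_c12 and at 11.1% in scGRO–seq batch Exp260b, each from 1 promoter read. Sqle was at 27.8% and Srebf2 at 8.77% in batch Exp264a, both from 5 promoter reads, while the other batches reached at most 10.5% and 2.82%. Srebf2 was at 8.70% in inAGTuC library Exp208_c12, against 0.633% to 0.952% in the other 3.

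Antisense reads per 100 sense reads stood apart in inAGTuC library Exp234_c11 for Idi1 (25.0), Insig1 (180.0) and Sqle (80.0), where the other libraries reached at most 0, 16.7 and 16.7. The value of Idi1 came from 1 antisense read beside 4 sense reads. The other members were also at their highest inAGTuC ratio in this library. Antisense and sense reads there numbered 126 and 109 for Srebf2, 16 and 16 for Hmgcs1, and 36 and 55 for Fdft1. In scGRO–seq they were at 115.6 for Hmgcs1 in batch Exp260b and at 120.0 for Sqle in batch Exp211, against at most 50.0 and 54.6 in the other batches. Over all batches, 33 of the 121 antisense reads of Hmgcs1 lay within 50 bp of each other. Of cells thinned to 1000 UMIs, 21% had a UMI of Srebf2 in batch Exp156, against 5.01% to 12.9% in the others. The thinned UMIs include those outside gene spans, whose part differed between batches. Combinations of a cell and a member with several UMIs were 2.28 times the expected number in batch Exp260, on 5 observed, against 0.866 to 1.60 times in the others.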

How the results depend on the processing

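The members called for promoter ratio, AGTuC against scGRO–seq, numbered 4. With a mapping quality of at least 10 or with no filter on low counts 2 were called, with libraries as replicates 1 of 2 that could be tested, and leaving out a library or batch gave 0 to 4. The share of all genes called was then 46.3%, 25.0% and 39.5%, against 54.7%, and 23.8% with a pseudocount of 2. The difference of Fdft1 was 0.13 after any annotated start. For body level, AGTuC against inAGTuC, 1 was called, 0 with log2 CPM and limma trend, and 0 to 1 leaving out libraries, with 11.2% of genes called under limma trend. Between batches 2 members and 31.7% of all genes were called, 5 and 39.4% with all deposited reads, 4 and 47.2% with limma trend, 1 and 20.5% with no filter on low counts, 0 and 28% with median ratio scaling, and 0 to 3 members leaving out batches. Apart from filters, which change the number of genes tested, and left-out samples, the cause was not tested.

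The comparisons of inAGTuC with scGRO–seq had no call under any alternative for the members, but several signs turned. For promoter ratio, Srebf2 was at -0.14 with mapping quality, -0.31 with a promoter of 250 bp, -0.035 with 500 bp on both sides and -0.45 with a pseudocount of 2. Hmgcs1 was at -0.32 and Sqle at -0.0068, in place of 0.97, with 250 bp, and Hmgcs1 at -0.075 with a pseudocount of 2. Leaving out samples gave -0.55 to 0.70 for Hmgcs1 and -0.73 to 0.43 for Srebf2. For body level, limma trend gave -0.080 for Hmgcs1 and -0.037 for Idi1. Within the batches Exp208, Exp234 and Exp261, which hold both assays, Sqle was at -0.34, Srebf2 at 0.022 and Insig1 at 0.49, with no call, and Exp234 has only 2 cells in scGRO–seq. Leaving out samples gave -0.090 to 0.39 for Hmgcs1, -0.14 to 0.22 for Sqle, -0.44 to 0.059 for Fdft1, -0.33 to 0.061 for Insig1 and -0.033 to 0.41 for Idi1. Median ratio scaling moved the median of all genes from -0.13 to 0.00095 here and from 0.18 to -0.053 for AGTuC against inAGTuC.

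The share of cells with any member ran from 42.8% to 61.4%, the pair ratio from 0.955 to 1.06 and the ratio for several UMIs from 0.958 to 1.05 over all their alternatives. The labels give experiment and plate numbers but no replicate numbers, and the fit within the experiments that hold both assays is the one given above. Promoter counts are 0 in 4 to 8 of the 10 scGRO–seq batches for each member, which limits the precision of their ratios.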
